A study of Homo sapiens with 6 samples.

Results

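The 8 genes described here encode the IGF2BP and LIN28 RNA-binding proteins (IGF2BP1, IGF2BP2, IGF2BP3, LIN28A and LIN28B), the HMGA chromatin proteins (HMGA1 and HMGA2) and alpha-fetoprotein (AFP). They were taken by symbol from a table of 58735 genes, and all 8 were found. The table covers 6 RNA sequencing libraries of SW480, a human colorectal adenocarcinoma line, all grown in Leibovitz's L-15 medium with 10% FBS at 37 °C. The genotype of 3 libraries is labelled DDX39B overexpression and that of the other 3 WT, here called overexpression-labelled and control-labelled. DDX39B is an RNA helicase that acts in splicing and mRNA export, and the labels give no vector, selection or clone for its overexpression. Values are FPKM (reads scaled by the authors to gene length and a size factor of each library).

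These genes are called oncofetal because most are abundant in the embryo, fall silent in most adult tissues and return in tumours. LIN28A and LIN28B bind the precursors of the let-7 microRNAs and block their maturation. Mature let-7 in turn represses mRNAs with matching sites, among which those of HMGA2, LIN28B and the IGF2BP genes are textbook targets. The IGF2BP proteins bind mRNAs, many of them with N6-methyladenosine, and protect them from decay. HMGA proteins bend AT-rich DNA through their AT-hooks and alter chromatin access. AFP is the main plasma protein of the fetal liver and yolk sac and a serum marker of liver tumours.

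The let-7 seed was examined because several of the 8 genes are textbook let-7 targets. In RefSeq (GRCh38.p14), 9 mature let-7 family sequences from 12 loci shared the same bases 2 to 8. The 4 below, whose loci or host genes come up in the results, differ outside the seed, which is in capitals.
hsa-let-7a-5p: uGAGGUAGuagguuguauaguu
hsa-let-7b-5p: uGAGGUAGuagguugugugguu
hsa-let-7c-5p: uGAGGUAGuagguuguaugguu
hsa-let-7d-5p: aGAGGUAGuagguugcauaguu

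The complement of that seed, CTACCTC, was searched on the sense strand in the 3′ UTR of the principal GENCODE transcript of each gene. It occurred 4 times in HMGA2, IGF2BP1 and LIN28B, 1 time in IGF2BP2, IGF2BP3, HMGA1 and LIN28A, and not in AFP. Of 18919 3′ UTRs read in this way, 8.58% held at least 1 match. Since longer 3′ UTRs have more room for a match, each gene was set against 3′ UTRs read over its own length. Among the 2844 3′ UTRs at least as long as that of HMGA2 (3003 bases), 16.8% held a match in their first 3003 bases, and 1, HMGA2 itself, held 4. For IGF2BP1 the same count over 6206 bases was 1 of 629 (30.7% held a match), and for LIN28B over 4549 bases it was 3 of 1297 (22.7%). A single match was common, at 9.97% of 3′ UTRs over the length of IGF2BP2, 11.8% for IGF2BP3, 7.89% for HMGA1 and 17.9% for LIN28A. The 4 HMGA2 matches and the single matches of IGF2BP2 and IGF2BP3 are printed because these 3 genes differed most between the groups. The capitals mark the match, with 14 bases before and 1 base after it.
HMGA2 match 1 (chr12:65963299-65963320, plus strand): ccaacgttcgatttCTACCTCa
HMGA2 match 2 (chr12:65964534-65964555, plus strand): cccactactcaataCTACCTCt
HMGA2 match 3 (chr12:65964946-65964967, plus strand): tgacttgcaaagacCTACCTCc
HMGA2 match 4 (chr12:65965799-65965820, plus strand): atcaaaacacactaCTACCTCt
IGF2BP2 match (chr3:185644220-185644241, minus strand): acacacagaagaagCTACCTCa
IGF2BP3 match (chr7:23311795-23311816, minus strand): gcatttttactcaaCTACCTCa

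A match is a description of the annotated transcript in GRCh38, not a measured site, and mature microRNAs were not measured. The 3′ UTR of HMGA2 is often lost in tumours by rearrangement or by use of an early poly(A) site, and gene-level FPKM does not show which 3′ UTR was transcribed.

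The libraries held 16963075 to 17463697 reads, worked out as whole numbers from FPKM and gene length. Mitochondrial genes took 6.00% to 6.23% of the reads under the overexpression label and 4.26% to 5.02% under the control label. The control-labelled libraries were also more spread, with a chi-square per gene between pairs of 7.36 to 32.9 against 2.09 to 2.43, and the part of either in the results was not tested. DDX39B itself ran counter to its label. Its FPKM was 39.3, 34.6 and 41.9 under the control label and only 15.02, 13.9 and 14.03 under the overexpression label, so every direction below follows the labels as given. DCLK1, the kinase gene named in the series title, had 0.0289 to 0.0873 FPKM under the control label and 12.8 to 13.3 FPKM under the overexpression label. The groups differed in most of the transcriptome. limma's test on log2(FPKM + 1) covered the 13972 genes that averaged 1 FPKM or more over all libraries, and 10726 of them had an adjusted p below 0.05, which is 76.8%, with 37.5% higher and 39.3% lower under the overexpression label. FPKM did not overlap between the groups in 80.1%. A list of 15 colorectal epithelium markers had 9 tested genes, all higher under the overexpression label. Its summed level, over all 15, was 1980 to 2004 against 359 to 431 FPKM. Some tested markers passed the filter only through the group where they were high, such as CDH1 (10.99 FPKM under the overexpression label, 0.284 under the control label). The filter thus partly sets the count of higher markers, which is a description. Few markers of other tissues passed the expression filter, with 2 of 11 for fibroblasts, 1 of 9 for endothelium and 0 of 13 for leukocytes. The endothelial list summed to 1.06 to 1.48 FPKM under the overexpression label and 37.0 to 51.5 FPKM under the control label, chiefly from ESAM, a junction adhesion gene (64.2-fold lower). CDX2, the intestinal homeobox factor, had 0 reads in the control-labelled libraries, whereas the keratins KRT8 and KRT18 were present in both groups (179 ± 9.3 and 202 ± 31 FPKM for the control label, SD, n = 3). Between libraries of different groups the chi-square per gene was 247 to 276. Pearson's r of log2(FPKM + 1) across genes was 0.676 to 0.685 between groups and at least 0.974 within a group. Whether both groups came from the same stock of cells was not tested, and the labels do not allow it to be told apart from the label. With bulk RNA, fewer cells of a type and less RNA per cell cannot be told apart. The labels do not say whether replicates were separate cultures, so p-values measure the spread between these libraries, which may be technical.

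HMGA1, HMGA2 and IGF2BP2 were higher under the overexpression label, IGF2BP3 was lower and IGF2BP1 did not pass the test. LIN28A, LIN28B and AFP were at or near 0 reads in both groups and were not tested. The 3 higher genes and the 1 lower gene stood against a background of 37.5% and 39.3% of all tested genes, so 4 of 5 tested genes past the threshold is close to the 76.8% of the whole table. Groups did not overlap for those 4 genes, against 80.1% of all tested genes. HMGA2 lay under 1 FPKM in each control-labelled library and passed the filter only through the overexpression-labelled group. Its call and its lack of overlap are therefore a description. The sizes of the changes set the genes apart more than their calls did. The HMGA2 change was 18.0-fold and that of IGF2BP2 7.98-fold (ratios of mean FPKM), whereas HMGA1 differed 1.85-fold and IGF2BP3 2.32-fold. On the log2 scale, 361 tested genes had a larger increase than IGF2BP2, 485 than HMGA2 and 2545 than HMGA1, and 1932 had a larger decrease than IGF2BP3.

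**Figure D1:**
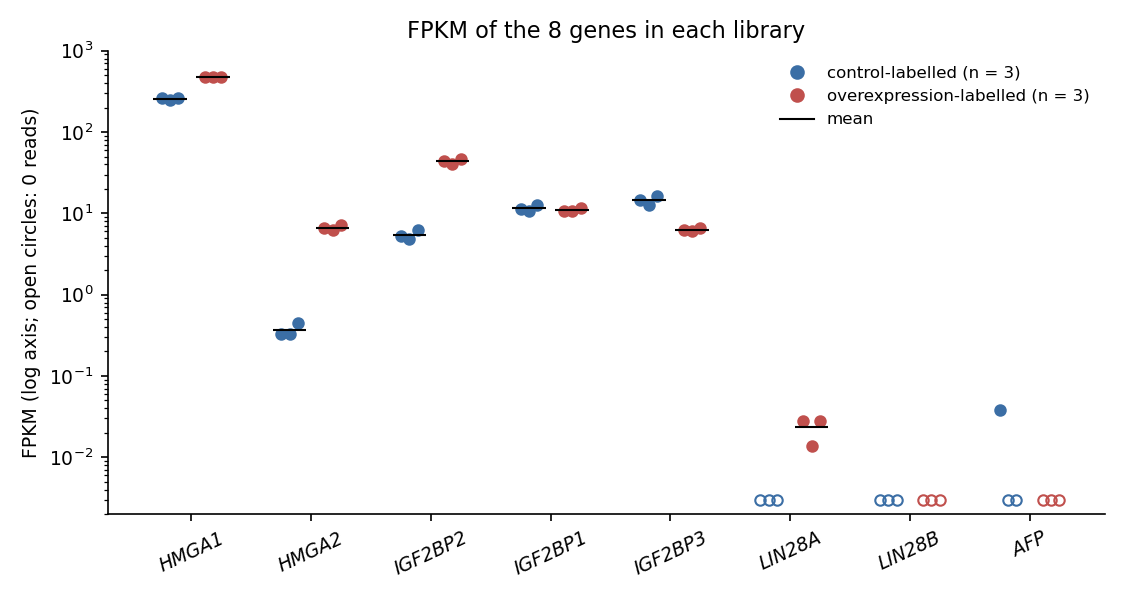
FPKM of the 8 genes (log axis) in the 3 control-labelled and 3 overexpression-labelled libraries, with a bar at the mean where all 3 libraries had reads and open circles at the bottom for 0 reads. HMGA1, HMGA2 and IGF2BP2 sit higher in every overexpression-labelled library, IGF2BP3 sits lower, IGF2BP1 overlaps, and LIN28A, LIN28B and AFP are at or near 0.

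HMGA2, the HMGA gene of embryonic mesenchyme and of many invasive tumours, showed the largest ratio of the 8 genes that can be given. HMGA2 (ENSG00000149948, chromosome 12, 65824131 to 65966295, plus strand, GRCh38) had 6.64, 6.18 and 7.16 FPKM under the overexpression label, against 0.327, 0.331 and 0.454 FPKM under the control label. All 3 overexpression-labelled libraries lay far above the highest control-labelled one. Means were 6.66 ± 0.49 and 0.370 ± 0.072 FPKM (SD, n = 3 each), from 5494 and 285 reads. On the log2(FPKM + 1) scale the difference was 2.48 (SE 0.081) at a limma adjusted p of 5.09e-07, and that scale shrinks the change of a gene this low in a group. With a pseudocount of 0.1 it was 3.85, and with limma's voom on the reads 4.28. HMGA2 passed the filter only through its overexpression-labelled values, so its p-value is no independent support for the difference. The FPKM of HMGA2 is per 15403 bases of merged exons, whereas its principal transcript has 4473 bases. Per principal transcript length, the level was 22.9 ± 1.7 and 1.28 ± 0.25 FPKM.

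Genes that overlap HMGA2 had few reads. RPSAP52, a transcribed pseudogene on the opposite strand at the 5′ end of HMGA2, had 0.557, 0.408 and 0.275 FPKM under the overexpression label. Its control-labelled values were 0.121, 0.029 and 0.088 FPKM. The antisense genes AC090673.1 and AC090673.2 had 28 and 8 reads against 3 and 1, and AC107308.1, on the same strand as HMGA2, had 14 reads against 0, of which 12 came from overexpression-labelled library 2. All 4 were under the filter of 1 FPKM and were not tested. Without a statement that counting used strand, reads of HMGA2 and of these genes cannot be told apart with certainty.

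HMGA1, the paralogue expressed in most proliferating cells, was the most abundant of the 8 genes. HMGA1 (ENSG00000137309, chromosome 6, 34236873 to 34246231, plus strand) had 476, 475 and 478 FPKM under the overexpression label, against 259, 251 and 264 FPKM under the control label. It ranked 45th and 102nd by mean FPKM among protein-coding genes in the respective groups. The groups did not overlap, and the log2 difference was 0.88 (SE 0.044) at a limma adjusted p of 3.40e-06. On average the levels were 476 ± 1.4 and 258 ± 6.8 FPKM (SD, n = 3 each). HMGA1 has processed pseudogenes of near-identical sequence, with which it may share reads. Its 8 annotated pseudogenes together had 70, 78 and 89 reads under the overexpression label and 13, 17 and 4 under the control label. That was 0.358% to 0.448% and 0.0389% to 0.173% of the HMGA1 reads. HMGA1P5 alone had 139 reads against 0. Whether reads moved between the copies was not tested.

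Both HMGA genes were thus higher, but by unequal amounts. The log2 ratio of HMGA2 to HMGA1 within a library was -6.17, -6.26 and -6.06 under the overexpression label and -9.63, -9.57 and -9.19 under the control label. These ratios do not depend on library scaling and did not overlap. The mean difference was 3.30, with an exact permutation p of 0.10, two-sided, the smallest that 3 against 3 libraries can give. All 9 within-library and summed quantities of these genes compared in this way had that p, which stayed 0.10 after Benjamini-Hochberg adjustment. Per merged exon length, HMGA1 was 71.8 ± 5.1 times as abundant as HMGA2 under the overexpression label and 711 ± 113 times under the control label (SD, n = 3 each). Per principal transcript length, the same ratios were 22.5 ± 1.6 and 223 ± 35 (SD, n = 3 each).

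IGF2BP2, the IGF2BP paralogue that persists in adult tissues and whose gene carries type 2 diabetes risk variants, rose most within its family. IGF2BP2 (ENSG00000073792, chromosome 3, 185643739 to 185825056, minus strand) had 43.5, 41.001 and 46.01 FPKM under the overexpression label. Its control-labelled values were 5.23, 4.89 and 6.23 FPKM. The lowest overexpression-labelled library stood several times above the highest control-labelled one. The averages were 43.5 ± 2.5 and 5.45 ± 0.70 FPKM (SD, n = 3 each), from 11031 and 1289 reads. On the log2 scale that is a difference of 2.79 (SE 0.090) at a limma adjusted p of 4.88e-07. IGF2BP2-AS1, the antisense gene within it, had 42 and 5 reads and was not tested. SENP2, the nearest gene on one side and a SUMO protease gene, was 2.89-fold higher (limma adjusted p = 3.50e-06). TRA2B, a splicing factor gene on the other side, measured 23.4 ± 0.16 and 18.8 ± 1.2 FPKM (SD, n = 3 each) and was also higher (limma adjusted p = 2.53e-03).

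IGF2BP3, the paralogue most used as a tumour marker in pathology, moved the other way. IGF2BP3 (ENSG00000136231, chromosome 7, 23310209 to 23470467, minus strand) had 14.6, 12.6 and 16.2 FPKM under the control label, against 6.18, 5.997 and 6.58 FPKM under the overexpression label. Every control-labelled library was above every overexpression-labelled one. The group means were 6.25 ± 0.30 and 14.5 ± 1.8 FPKM (SD, n = 3 each), from 2850 and 6159 reads, and the log2 difference was -1.09 (SE 0.093) at a limma adjusted p of 4.70e-05. MALSU1, a mitochondrial ribosome factor gene whose 3′ end overlaps that of IGF2BP3 on the other strand, measured 10.2 ± 0.75 and 9.46 ± 0.25 FPKM and did not pass the test (limma adjusted p = 0.207). It passed under 2 other scalings, with log2 differences of 0.22 (voom) and 0.20 (FPKM rescaled to summed reads).

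IGF2BP1, the paralogue that binds the MYC and ACTB mRNAs, did not differ beyond the spread between libraries. IGF2BP1 (ENSG00000159217, chromosome 17, 48997412 to 49055650, plus strand) had 10.7, 10.7 and 11.8 FPKM under the overexpression label, against 11.2, 10.7 and 12.7 FPKM under the control label. The groups overlapped. Means were 11.1 ± 0.60 and 11.5 ± 1.03 FPKM (SD, n = 3 each), from 5403 and 5226 reads, and the log2 difference was -0.05 (SE 0.077) at a limma adjusted p of 0.592. Its sign changed with the scaling, at 0.052 with FPKM rescaled to summed reads and 0.060 with voom, and the range over all settings was -0.09 to 0.06. AC091133.2, an antisense gene at the 5′ end of IGF2BP1, had 40 reads against 14 and passed the test as higher (log2 difference 0.73, limma adjusted p = 5.48e-03). This antisense gene lay under 1 FPKM in each control-labelled library and passed the filter only through the other group. Its p-value is therefore no independent support for the difference.

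The make-up of the IGF2BP family therefore differed between the groups. Summed over the 3 paralogues, the level was 60.8 ± 3.3 FPKM under the overexpression label and 31.5 ± 3.5 FPKM under the control label (SD, n = 3 each). IGF2BP2 made up 72.0%, 71.04% and 71.5% of that sum under the overexpression label and 16.9%, 17.3% and 17.7% under the control label. The IGF2BP3 share was 10.2% to 10.4% under the overexpression label and 44.8% to 47.2% under the control label. The IGF2BP1 share was 17.8% to 18.6% and 35.96% to 37.8%, although its own level did not pass the test. Within a library, IGF2BP2 was 6.96 ± 0.10 times as abundant as IGF2BP3 under the overexpression label and 0.376 ± 0.016 times under the control label (SD, n = 3 each). On the log2 scale that ratio differed by 4.21 between the groups (exact permutation p = 0.10, two-sided, the smallest possible).

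**Figure D2:**
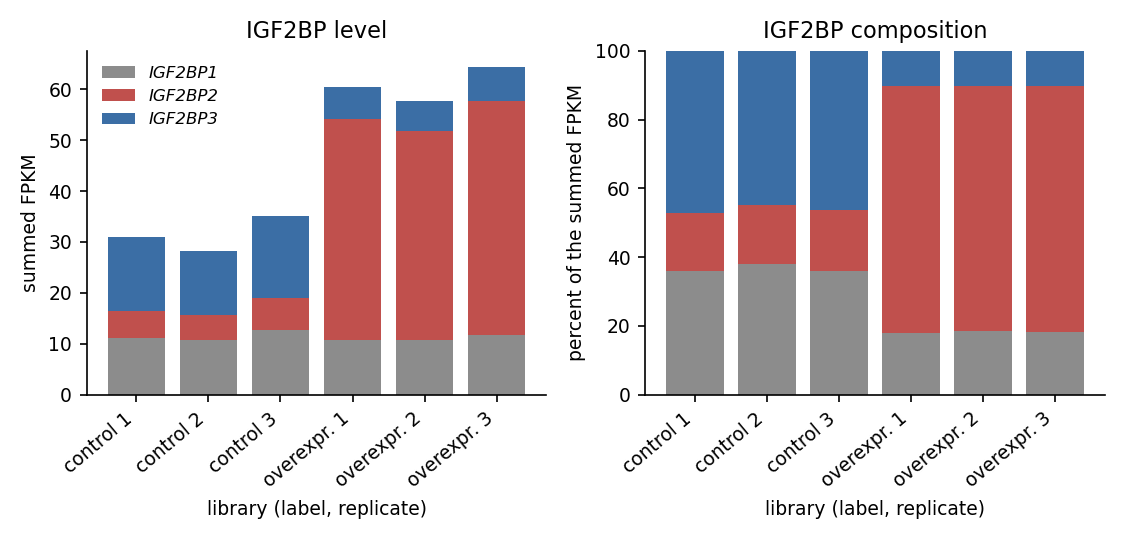
Left, FPKM of IGF2BP1, IGF2BP2 and IGF2BP3 stacked for each library, and right, the same as a percent of their sum. IGF2BP2 fills about 71% to 72% of each overexpression-labelled bar and 16.9% to 17.7% of each control-labelled bar, while the grey IGF2BP1 part of the left bars keeps a similar height.

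The order of the paralogues depended partly on the length used. Per merged exon length, the order was IGF2BP2, IGF2BP1, IGF2BP3 under the overexpression label and IGF2BP3, IGF2BP1, IGF2BP2 under the control label. In the control-labelled libraries, the mean of IGF2BP3 (14.5 ± 1.8 FPKM) and that of IGF2BP1 (11.5 ± 1.03 FPKM) lay close and their ranges just overlapped, although IGF2BP3 was the higher in each library. The merged exons of IGF2BP3 span 8511 bases, against 4250 for its principal transcript. Per principal transcript length, IGF2BP3 and IGF2BP1 were near equal in the overexpression-labelled libraries, at 12.5 ± 0.59 and 12.2 ± 0.66 FPKM. IGF2BP2 then made up 69.3% of the family under the overexpression label and 14.4% under the control label, and IGF2BP3 15.5% and 59.6%.

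The LIN28 genes, which block let-7 maturation, were close to silent in all 6 libraries. LIN28A (ENSG00000131914, chromosome 1, 26410778 to 26429722, plus strand) had 2, 1 and 2 reads under the overexpression label and 0 in each control-labelled library. That equals at most 0.0283 FPKM, below the 0.0414 to 0.0459 FPKM that 3 reads are worth for this gene. With no filter on low values its log2 fold change was 0.03 (limma adjusted p = 0.178). LIN28B (ENSG00000187772, chromosome 6, 104936616 to 105083332, plus strand) had 0 reads in all 6 libraries, which allows a level of up to 0.0277 to 0.0307 FPKM in a library (3 reads, counting error only). LIN28B-AS1, which overlaps its start, also had 0 reads in all 6.

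AFP (ENSG00000081051, chromosome 4, 73431138 to 73456174, plus strand) had 2 reads in control-labelled library 1 and 0 in the other 5, so no fold can be given. Its neighbours on chromosome 4, the albumin gene ALB and the afamin gene AFM, had 3 and 0 reads over all libraries. Of 14 hepatocyte and yolk sac markers, 13 were under the filter. The summed level of the list was 0.539 to 0.593 FPKM under the overexpression label and 145 to 179 FPKM under the control label, nearly all of it from the tested gene CPS1, a mitochondrial enzyme gene of urea synthesis, which was lower. Of the list, 3 genes had 0 reads in all libraries, and the part of these markers in any AFP value was not tested.

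**Figure D3:**
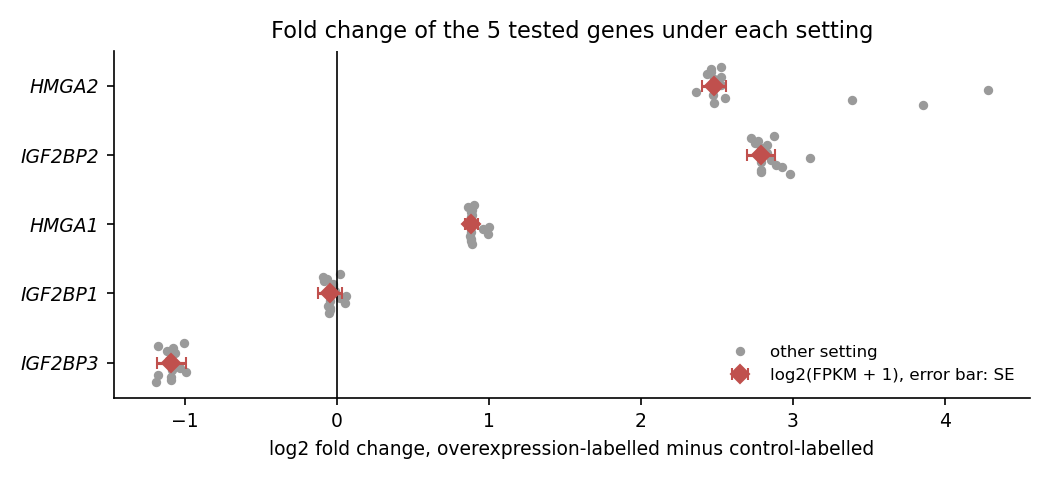
Log2 fold change (overexpression-labelled minus control-labelled) of the 5 tested genes, with the value on log2(FPKM + 1) and its SE in red and the value under each other setting in grey. HMGA2, IGF2BP2 and HMGA1 stay right of 0 and IGF2BP3 left of 0 under every setting run, while IGF2BP1 lies on both sides of 0.

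Other genes of the LIN28 and let-7 pathway were examined in lists by role. Of 20 genes of LIN28 partners and let-7 biogenesis, 19 were tested, with 5 higher, 10 lower and 4 not past the threshold. Their median log2 fold change was -0.26, against -0.03 for all tested genes. AGO2, the slicing Argonaute, measured 4.87 ± 0.25 FPKM under the overexpression label and 19.99 ± 3.03 under the control label (SD, n = 3 each), a 4.10-fold lower level (limma adjusted p = 8.83e-06). DROSHA, which cuts primary microRNAs in the nucleus, was 3.23-fold lower, and XPO5, which exports their precursors, 2.35-fold lower. DGCR8, the partner of DROSHA, went the other way, with a log2 difference of 0.51, as did MSI2, an RNA-binding protein of stem cells, at 2.46-fold. DICER1, which makes the mature duplex, did not pass the test (limma adjusted p = 0.197). It passed with voom (log2 difference 0.32) and without control-labelled replicate 3 (0.31). TUT4, which adds the uridine tail to LIN28-bound let-7 precursors, was 2.01-fold lower, and TUT7, a close relative, 1.36-fold lower. The TUT7 call was lost without overexpression-labelled replicate 2 (adjusted p = 0.0566) or replicate 3 (adjusted p = 0.0698). TRIM71, a stem cell ubiquitin ligase gene and a let-7 target, had 0 reads in the control-labelled libraries and measured 0.646, 0.657 and 0.580 FPKM in the others. Counting the control group as 3 reads, it was at least 90.7-fold higher. It was under the filter.

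Of 6 listed let-7 host genes 2 passed the filter, 1 of them higher and 1 lower. MIR100HG, the noncoding host of let-7a-2 (its mature form is the let-7a sequence above), measured 0.0263, 0.0457 and 0.0289 FPKM under the overexpression label. Under the control label it measured 2.38, 1.81 and 3.71 FPKM. It was 78.3-fold lower (limma adjusted p = 1.27e-04), and without control-labelled replicate 3 its mean fell under the filter. MIR100HG passed the filter only through the control-labelled group, so its p-value is no independent support for the difference. MIR99AHG, which hosts let-7c, was under the filter, with 33 reads against 220. MIRLET7BHG, which hosts let-7a-3 and let-7b, was 1.47-fold higher, at 2.92 ± 0.10 and 1.99 ± 0.050 FPKM (SD, n = 3 each; limma adjusted p = 1.06e-03). The hairpin locus with the most reads was MIRLET7D, with 101 reads against 68, and it did not pass the test. MIRLET7A1 passed as lower on 2 reads against 14, of which 10 came from control-labelled library 1, and that call was lost under 7 of 17 other settings. Reads on a hairpin in an mRNA library are not a measure of the mature microRNA.

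mRNAs reported as let-7 targets were split. Of 29 listed, other than the 8 genes, 23 were tested, with 9 higher, 10 lower and 4 not past the threshold. Their median log2 fold change was 0.01, near that of all tested genes (-0.03). The chemokine receptor gene CCR7 was 120-fold higher, from 905 reads against 7. CDK6, a G1 kinase gene, was 4.64-fold lower, and the receptor genes INSR and IGF1R were 2.42-fold and 1.79-fold lower. MYC was 1.71-fold lower, at 86.6, 86.6 and 88.5 FPKM against 145, 186 and 116 FPKM.

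Partners of the IGF2BP proteins and the enzymes of N6-methyladenosine differed less, by at most 1.98-fold among those past the threshold. Of 18 tested genes, 6 were higher, 6 lower and 6 not past the threshold, with a median of -0.001 on the log2 scale. HNRNPU and YBX1, which bind the MYC coding region together with IGF2BP1, were 1.98-fold and 1.20-fold lower, and SYNCRIP, of the same complex, was 1.75-fold higher. PABPC1, the poly(A)-binding protein, was 1.57-fold lower, and STAU1, a double-stranded RNA-binding protein, 1.47-fold higher. METTL3, the catalytic methyltransferase, was 1.34-fold higher. The call of ELAVL1, which encodes the AU-rich element binding protein HuR, at 14.9 ± 0.90 and 12.4 ± 0.85 FPKM (SD, n = 3 each), was lost with the replicate number as a block (log2 fold change 0.25, adjusted p = 0.0501). It was also lost without overexpression-labelled replicate 3 (0.20, adjusted p = 0.0646).

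mRNAs reported as clients of the IGF2BP proteins were 6 higher, 11 lower and 3 not past the threshold of 20 tested, with a median log2 fold change of -0.87. H19, the imprinted noncoding RNA bound by IGF2BP1, had 0 reads under the overexpression label and 661 under the control label, and was at least 237-fold lower. IGF2, whose mRNA gave the family its name, has 2 identifiers in the table. The larger of these had 17, 18 and 19 reads under the overexpression label and 0 under the control label, and the other had 0 in all. FSCN1, the filopodial actin bundler, was 16.7-fold lower, and PTGS2, the inducible cyclooxygenase gene, 68.8-fold lower. CCND1 measured 664 ± 7.4 against 32.9 ± 2.3 FPKM (SD, n = 3 each; 20.2-fold higher), and CTNNB1, the beta-catenin gene, was 3.74-fold higher. ACTB, the classic client of IGF2BP1, measured 942, 945 and 954 FPKM against 1378, 1480 and 925 FPKM and did not pass the test (limma adjusted p = 0.0781). It passed without control-labelled replicate 3, the lowest of that group (-0.59 on the log2 scale).

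**Figure D4:**
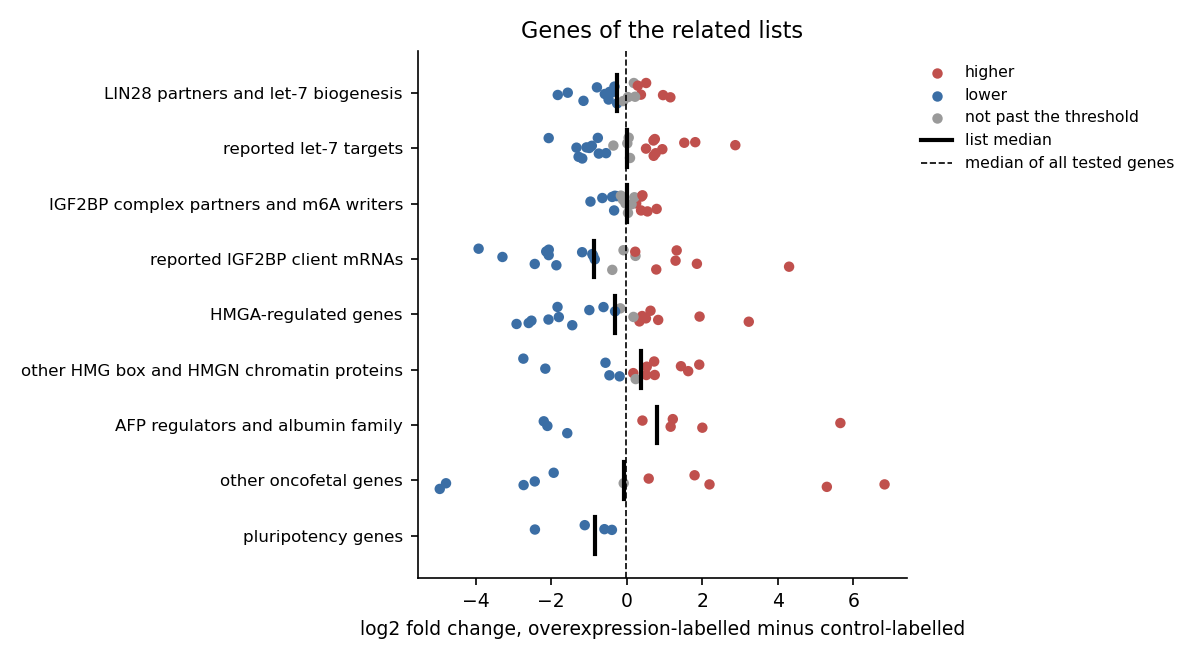
Log2 fold change (overexpression-labelled minus control-labelled) of each tested gene in 9 related lists, coloured by its call, with a thick bar at the list median and a dashed line at the median of all tested genes (-0.03). Every list except the 4 pluripotency genes holds genes on both sides, and the client mRNAs have a median of -0.87.

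Genes reported to respond to HMGA proteins were 7 higher, 10 lower and 2 not past the threshold of 19 tested, with a median log2 fold change of -0.31. Of all tested genes, 76.8% passed the threshold. Some genes of this list, such as TWIST1, ZEB1 and CDH1, passed the filter only through the group where they were high. Their calls are therefore a description. SNAI1, TWIST1 and ZEB1, mesenchymal transcription factors that HMGA2 is reported to induce, were lower where HMGA2 was higher. SNAI1 measured 2.86, 2.46 and 2.56 FPKM against 18.3, 14.4 and 29.6 FPKM, a 7.89-fold lower level (limma adjusted p = 7.42e-05). TWIST1 had 0 reads under the overexpression label and was at least 238-fold lower, and ZEB1 was 13.4-fold lower. CDH1, the E-cadherin gene that these factors repress, measured 10.99 ± 0.43 against 0.284 ± 0.16 FPKM (SD, n = 3 each) and was 38.7-fold higher. The cyclin genes CCNA2 and CCNB2, which HMGA proteins are reported to activate, were 1.55-fold and 1.78-fold higher. The tested epithelial markers above were also higher under the overexpression label, as were 37.5% of all tested genes. The part of these markers in the differences was not tested.

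Other chromatin proteins of the high mobility group were 8 higher, 5 lower and 1 not past the threshold of 14 tested, with a median log2 fold change of 0.38. The HMG box genes HMGB1, HMGB2 and HMGB3 were 3.84-fold, 2.74-fold and 3.14-fold higher. HMGB1 measured 127, 124 and 121 FPKM against 32.7, 37.3 and 27.01 FPKM. HMG20B, a subunit of the LSD1 and CoREST repressor complex, was 6.88-fold lower, and the nucleosome-binding gene HMGN5 6.90-fold lower.

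Several regulators of AFP were expressed while AFP itself had next to no reads. ZHX2 and ZFHX3, which repress AFP, measured 6.25 ± 0.24 and 5.69 ± 0.076 FPKM under the overexpression label and 2.12 ± 0.11 and 4.04 ± 0.54 FPKM under the control label (SD, n = 3 each), and both were higher. ZBTB20, another repressor of AFP, lay the other way at 0.0943, 0.0851 and 0.0790 FPKM against 0.362, 0.312 and 0.315 FPKM, without overlap, but was under the filter and not tested. HNF4A, a hepatocyte and gut nuclear receptor, was 8.16-fold higher, while CEBPA and CEBPB were 7.91-fold and 4.42-fold lower. SERPINA1, a secreted protease inhibitor of liver and gut, measured 52.7 ± 0.94 against 0.0658 ± 0.039 FPKM (SD, n = 3 each). Of the 21 genes in this list 8 were tested, with 5 higher and 3 lower and a median log2 fold change of 0.79.

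Other genes with an oncofetal pattern were split, 5 higher, 5 lower and 1 not past the threshold of 11 tested, with a median log2 fold change of -0.08. MDK, the heparin-binding growth factor midkine, was 82.3-fold higher, at 74.1, 73.6 and 70.0 FPKM against 0.615, 0.944 and 1.09 FPKM. FGF19, an intestinal hormone gene, was 2884-fold higher, from 15330 reads against 5. PEG10, an imprinted retrotransposon-derived gene, had 0 reads against 8908 and was at least 3186-fold lower, and ALPP, the placental alkaline phosphatase gene, was 43.2-fold lower. SALL4, a zinc finger factor of embryonic stem cells, was 6.05-fold lower. The 4 tested pluripotency genes, KLF4, POU5F1, DNMT3B and TERF1, were all lower (median log2 fold change -0.85), KLF4 by 6.22-fold, with 11 of 15 listed genes under the filter. POU5F1 has near-identical pseudogenes and may share reads with them.

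Genes of like pattern were sought over the 6 libraries, whose points fall into the same 2 groups for every gene. Pearson's r of log2(FPKM + 1) over the 6 libraries was at least 0.99 between HMGA1 and 1457 of 11312 other protein-coding genes, and for HMGA2, IGF2BP2 and IGF2BP3 the number was 1407, 1365 and 914. The closest pairs are given as a description. HMGA1 was closest to NSMF and TRIB1, HMGA2 to WTIP and ETS1, IGF2BP2 to LAMP3 and TINAGL1, and IGF2BP3 to IRS2 and TERF2IP. IRS2, the insulin receptor substrate gene, measured 12.3, 12.2 and 12.9 FPKM against 32.3, 27.1 and 36.0 FPKM. It was picked for its likeness to IGF2BP3, so a shared pattern follows from the choice. The order of the control-labelled libraries was the same for IGF2BP1, IGF2BP2, IGF2BP3 and HMGA1, and differed for HMGA2. For IGF2BP1, which did not pass the test between the groups, no gene reached 0.99, and the closest were ZBTB39 (r = 0.969) and C9orf85 (r = 0.959).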

How the data were processed

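RNA was prepared with an RNeasy kit and libraries with a SMARTer mRNA kit, per the labels' protocols. The authors deposited FPKM for each gene, with gene lengths, while for the aligner, the counter and its strand setting nothing is given in the sources used here. The submitters' processing notes name mm10, a mouse build, but all 58735 identifiers are human and match GENCODE release 29 on GRCh38. Columns of other samples numbered 0. FPKM times length, divided by the smallest such product, gave whole reads for 100% of values above 0 (within 0.001 read). The library size behind the FPKM was not the sum of these reads. It was 1.038 to 1.052 times that sum under the overexpression label and 0.958 to 0.995 times under the control label. Rescaling to the sum moved the median log2 fold change of the tested genes by 0.096.

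limma 3.58.1 (R 4.3.3, trended variance, group alone in the model) was applied, as a two-sided test, to log2(FPKM + 1) of genes averaging 1 FPKM or more, with Benjamini-Hochberg adjustment over all genes tested and a threshold of 0.05. A tested gene averaging under 1 FPKM in 1 group passed the filter only through the other group, and its call is a description. Counts of calls in the lists stand against the 76.8% of all tested genes that passed the threshold. Folds are ratios of mean FPKM. Against 0 reads they are lower bounds from a floor of 3 reads over the group, which covers counting error only. The same fit was also run on simulated reads in which few genes changed and all libraries were equally variable. These data differ in both respects, so that run is not read as support for the calls. 3′ UTRs came from GENCODE principal transcripts and microRNAs from RefSeq. Libraries of a group differed by more than counting noise (chi-square per gene at least 2.09) and each was counted once, which does not show that they came from separate cultures or RNA.

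The 8 genes and the lists were chosen with earlier results of these data known. Named are the 8 genes, DDX39B, DCLK1, overlapping and nearest genes, the closest correlates and per list up to 4 genes past the threshold by size of change; DGCR8, DICER1, TUT4, TUT7, TRIM71, MYC, INSR, IGF1R, YBX1, METTL3, ELAVL1, CTNNB1, ACTB, CCNA2, CCNB2, HMGB2, ZHX2, ZFHX3, ZBTB20, SALL4, IGF2, MIR99AHG, MIRLET7D, MIRLET7A1, HMGA1P5, CDX2, KRT8 and KRT18 were chosen after their values were seen. Some genes that the rule names are not reported here. MATR3 and IGF2, each with 2 identifiers, were left out of list counts. Alternatives changed the pseudocount, filter, scaling, variance model, test, replicate block and each library.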

Additional observations from a re-analysis of the deposited data

How the results depend on the processing

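The 3 higher and 1 lower of the 8 genes kept these counts under all 17 alternatives, except that HMGA2 fell under a filter of 5 FPKM, which left 2 higher. Among these, median-ratio scaling used the same factor of 1.008 in every library. It thus nearly repeated the fit on the deposited FPKM and is no separate check. With each library left out in turn the counts remained 3 and 1, and 9794 to 11144 genes passed the threshold over the whole table. With a filter of 5 FPKM, 6218 of 7796 genes passed, as fewer genes were tested. With no filter 15105 of 33913 passed. Over the libraries left out, the log2 ratio of HMGA2 to HMGA1 differed between the groups by 3.21 to 3.44, that of IGF2BP2 to IGF2BP3 by 4.17 to 4.23, and the IGF2BP2 share of its family by 53.9 to 54.4 percentage points. IGF2BP1 turned positive with FPKM on the sum of reads (0.052), quantile normalization (0.021), voom (0.060) and without control-labelled replicate 3, its range over libraries left out being -0.095 to 0.018. ZBTB39 turned positive with FPKM on the sum of reads (0.030), voom (0.042), array weights (0.072) and without control-labelled replicate 3, with a range of -0.15 to 0.10 over libraries left out, and C9orf85 without that replicate, with a range of -0.32 to 0.015. The causes were not tested. The array weights were 39.2 for control-labelled library 1 against 0.191 and 0.127 for the other control-labelled libraries, so that fit rests in effect on 1 control library and its calls are not read as support. MIRLET7D passed with array weights and without overexpression-labelled replicate 1 or control-labelled replicate 3, and the MIRLET7A1 call was lost with no filter, FPKM on the sum of reads, voom, no mean-variance trend, the replicate block and without overexpression-labelled replicate 1 or 3 (adjusted p = 0.0526 to 0.141). voom moved the median of all genes by 0.11, more than the IGF2BP1 difference. The filter of 5 FPKM, which tests fewer genes, left 5 let-7 targets higher (9 before), 5 HMGA-regulated genes lower (10), 1 AFP regulator higher (5), 2 other oncofetal genes lower (5), 1 pluripotency gene lower (4), 5 epithelial markers higher (9) and 0 let-7 host genes. Other oncofetal genes higher numbered 9 with no filter and 8 with TPM scaling (5 before), AFP regulators lower 5 with no filter (3 before), and let-7 host genes lower 2 with no filter (1 before) and 0 without control-labelled replicate 3. Replicate numbers did not pair the libraries (correlation of deviations -0.0217 to 0.0075 for the same number). The replicate block left 10506 calls in the whole table, with 3 of the 8 genes higher and 1 lower. Depth limits what can be said of LIN28A, LIN28B and AFP, with at most 2 reads in any library.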

Other observations

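The let-7 seed match was counted across all tested genes with a read 3′ UTR, leaving out the 8 genes, in a grouping made after the values were seen. Of 122 genes with at least 2 matches, 47 (38.5%) were higher and 49 (40.2%) lower under the overexpression label, with a median log2 fold change of -0.07. Of 10093 genes with 0 matches, 37.1% were higher and 42.1% lower, with a median of -0.06. The 18 genes with at least 3 matches were 7 higher and 6 lower. These shares are a description of 1 comparison of 3 against 3 libraries.

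On 1 side of HMGA1 and of LIN28A the nearest gene differed in level, as did 76.8% of all tested genes. On the other side, CYCSP55 and ZNF683 had 0 reads in all libraries. SMIM29, next to HMGA1 on the other strand, measured 8.19, 8.07 and 8.21 FPKM under the overexpression label. Its control-labelled values were 4.68, 4.09 and 4.37 FPKM, a 1.86-fold difference. DHDDS, next to the silent LIN28A and an enzyme gene of dolichol synthesis, was 1.26-fold higher. GPNMB, a transmembrane glycoprotein gene before IGF2BP3, was lower, at 0.423, 0.550 and 0.473 FPKM against 5.58, 4.75 and 10.3 FPKM. Whether neighbouring genes changed together was not tested.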
